A study of Homo sapiens with 18 samples.

Results

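The 9 genes described here are EGR1, EGR2, EGR3 and EGR4, which encode zinc finger transcription factors, IER2, IER3 and IER5, NR4A1, and SRF, the gene of the serum response factor. They were taken by name and matched by their Entrez gene ID in the RNA-Seq files, where all 9 were listed in every library, out of 23604 genes listed in at least 1 library. All 9 passed the filter on low counts, which kept 16948 genes. The cells were the human breast epithelial line MCF10A-Er-Src, which carries a v-Src kinase fused to an oestrogen receptor domain, so that tamoxifen switches the kinase on. TAM cells had been transformed by tamoxifen and NT cells, their progenitors, had not received it, so all 4 groups carry the fusion. Each kind of cell was incubated for 4 h with DMSO, the solvent, or with triptolide at the labelled dose (TPL-125nM). Triptolide is a compound that binds XPB, a helicase subunit of the initiation factor TFIIH. The groups were therefore NT, NT + TPL, TAM and TAM + TPL, with 2 RNA-Seq libraries each from independent biological replicates of 1 cell line, and 1 deposited list of RNA polymerase II (RNAPII) peaks per group.

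Immediate early genes are transcribed within minutes of a stimulus such as serum or stress, without any need for new proteins, because the factors that start them are already in the cell. Many of them are short, hold a paused RNAPII near their start and give unstable mRNAs, so their levels follow transcription closely. SRF is the factor that turns on many of them: it binds a DNA element called the CArG box, together with the ELK proteins, which respond to MAP kinases, or with the MRTF proteins, which respond to actin. EGR proteins then bind their own target genes, and the NAB proteins hold them in check. NR4A1 is an orphan nuclear receptor, IER3 modulates cell survival, and IER5 acts with the heat shock factor HSF1.

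The RNA-Seq depth was between 7461309 and 8349448 expected counts per library. Levels are given as FPKM, which are per kilobase of transcript and scaled to the library, so that they can be compared between genes and are relative to the other mRNAs of the same library. Changes are log2 fold changes with their standard error (SE) from edgeR's quasi-likelihood test on the expected counts, with Benjamini-Hochberg adjustment over all 16948 genes. A call needed an adjusted p no larger than 0.001 together with a log2 change of 1.2 or more in either direction. An adjusted p of at most 0.05 alone is given beside it as the looser threshold. Over all genes the median log2 fold change with TPL was 0.09 in NT and 0.05 in TAM cells. It was 0.31 and 0.29 under upper quartile scaling and −0.26 and −0.06 with GAPDH as the reference. At the looser threshold 2919 genes rose and 3355 fell with TPL in NT cells, against 4088 and 2625 under upper quartile scaling. In TAM cells 2431 rose and 3159 fell, against 3613 and 2298. With GAPDH as the reference the splits were 1358 against 4381 in NT and 1626 against 3056 in TAM cells. The basal epithelial markers of the line, KRT5, KRT14, KRT17, TP63, CDH1, EPCAM and ITGB4, were at or above 0.28 FPKM in every library, and their summed level was between 9338.62 and 14634.85 FPKM in the NT and NT + TPL libraries and between 1693.83 and 3411.77 in the TAM and TAM + TPL libraries. The fibroblast markers summed to between 4.21 and 12.83 FPKM and the endothelial markers to between 0.46 and 1.73, while CD3E did not exceed 0.17 FPKM. The leukocyte sum was at most 90.29 FPKM in the NT and NT + TPL libraries and at least 281.26 in the others, and nearly all of it was CD68, a lysosomal protein gene that is not restricted to leukocytes. The part of these shifts in the results below was not tested. In bulk samples fewer cells with a transcript and less of it per cell cannot be told apart.

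The promoters are shown first, since SRF is 1 of the 9 genes and binds CArG boxes. In the window from 250 bases before to 50 bases after the main start, read from GRCh37, a CArG box was found in 4 of the 9 genes, EGR1, EGR2, EGR3 and SRF, and in 1.12% of 13312 promoters of tested genes with an annotated start. EGR1 held 2 boxes, from −105 to −96 and from −83 to −74 relative to the start. EGR2 and EGR3 each held 1, in both from −71 to −62, and SRF held 2, from −30 to −21 and from −10 to −1. Below are EGR1, a CArG promoter whose mRNA fell with TPL in NT cells, EGR2, which shares the position of its box with EGR3, SRF, a CArG promoter whose mRNA rose, and IER5, whose mRNA rose and whose window held no box. Capitals mark the CArG boxes.
EGR1, chr5:137800918-137801217, plus strand: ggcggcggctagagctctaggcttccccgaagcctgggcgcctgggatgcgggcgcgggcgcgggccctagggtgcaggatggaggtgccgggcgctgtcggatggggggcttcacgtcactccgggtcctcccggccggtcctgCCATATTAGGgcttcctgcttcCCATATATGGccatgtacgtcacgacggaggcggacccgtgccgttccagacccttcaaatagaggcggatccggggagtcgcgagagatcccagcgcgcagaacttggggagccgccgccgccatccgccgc
EGR2, chr10:64576077-64576376, minus strand: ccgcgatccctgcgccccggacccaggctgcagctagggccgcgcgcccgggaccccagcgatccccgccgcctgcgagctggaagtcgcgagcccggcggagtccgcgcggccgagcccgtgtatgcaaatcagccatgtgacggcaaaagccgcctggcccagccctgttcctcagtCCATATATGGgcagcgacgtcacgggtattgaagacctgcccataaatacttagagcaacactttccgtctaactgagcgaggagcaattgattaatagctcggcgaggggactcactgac
SRF, chr6:43138757-43139056, plus strand: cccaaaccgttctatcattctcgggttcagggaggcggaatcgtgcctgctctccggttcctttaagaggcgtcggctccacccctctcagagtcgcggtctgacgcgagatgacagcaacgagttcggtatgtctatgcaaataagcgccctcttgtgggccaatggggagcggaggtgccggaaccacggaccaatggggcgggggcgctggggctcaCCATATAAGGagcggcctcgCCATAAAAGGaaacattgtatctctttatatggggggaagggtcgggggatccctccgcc
IER5, chr1:181057586-181057885, plus strand: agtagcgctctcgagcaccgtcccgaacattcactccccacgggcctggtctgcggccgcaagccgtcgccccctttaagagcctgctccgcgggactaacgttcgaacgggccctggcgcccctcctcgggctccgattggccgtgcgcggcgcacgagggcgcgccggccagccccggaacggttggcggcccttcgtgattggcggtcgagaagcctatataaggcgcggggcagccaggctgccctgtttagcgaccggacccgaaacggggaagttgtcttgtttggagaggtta

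Other motifs were searched in the same windows on both strands. The SP/KLF motif GGGCGGGG was found in IER2, NR4A1 and SRF, and in 41.1% of all promoters. The exact TATA box letters TATAAA were found only in SRF, and in 6.0% of all promoters. In SRF they lay on the opposite strand, on positions 14 to 19 after the start. The IER5 window shown above holds tatataag before its start, which these letters do not match. The letters of the cAMP response element (TGACGTCA), the ETS motif (CCGGAAGT) and the EGR motif (GCGTGGGCG) were found in 0 of the 9 windows, against 3.28, 8.33 and 1.35% of all promoters. Each of these motifs was searched in its exact letters alone, so a window without them may hold another spelling. No sites of different motifs overlapped in these windows. The genes were also short, with a median span of 4371 bases and 2 exons, against 27620 bases and 9 exons over the tested genes. IER3 was the shortest at 1349 bases and SRF the longest at 10238 bases, and IER5 had a single exon.

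EGR1 was by far the most abundant EGR transcript, and it fell with TPL in NT cells. In NT cells EGR1 stood at 411.86 and 554.97 FPKM without and at 201.36 and 83.98 with TPL. In TAM cells it stood at 211.98 and 172.07 without and at 119.70 and 118.45 with TPL. The NT libraries lay above all the others, while the NT + TPL libraries spanned the TAM + TPL values and reached into the TAM range. TPL changed EGR1 by −1.78 on the log2 scale (SE 0.37, adjusted p = 0.0104) in NT cells, and the value in TAM cells was −0.74 (SE 0.36, adjusted p = 0.155). Between TAM and NT cells with DMSO the log2 difference of EGR1 was −1.32 (SE 0.36, adjusted p = 0.0885). EGR1 passed the looser threshold in 6 of 19 alternative fits of that difference, DESeq2 and the fit on 2 groups among them, with adjusted p between 0.00117 and 0.0247, and in 3 of 19 for TPL in TAM cells. The fall in NT cells lay between −2.50 and −1.29 as each library was left out, and without NT replicate 2 EGR1 no longer passed the looser threshold.

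EGR3, which is needed for muscle spindles and acts in lymphocytes, moved the opposite way with TPL. EGR3 was at 0.81 and 0.91 FPKM in NT cells and at 12.76 and 5.87 in those given TPL. TAM cells held 0.15 and 0.09 FPKM without and 3.92 and 3.32 with TPL. The 4 groups did not overlap, in the order NT + TPL, TAM + TPL, NT and TAM. The rise with TPL was 3.43 on the log2 scale (SE 0.41, adjusted p = 0.00138) in NT cells and 4.88 (SE 0.51, adjusted p = 0.000965) in TAM cells. The TAM libraries held only 5 and 3 expected counts of EGR3 against 110 or more in TAM + TPL, so the fitted fold there rests on few reads. In limma on log2(FPKM + 1), which draws low values together, the rise of EGR3 was 2.39 in NT and 2.04 in TAM cells. With DMSO, EGR3 was lower in TAM than in NT cells, with a log2 difference of −2.87 (SE 0.52, adjusted p = 0.022). That difference missed the looser threshold with any library other than those of NT + TPL left out, at values between −3.27 and −2.56. It also missed it in limma on log2(FPKM + 1), at −0.73 for EGR3.

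EGR2 and EGR4 were near the limit of detection. EGR2, the EGR factor of hindbrain patterning and myelination, lay between 0.29 and 1.06 FPKM and between 7 and 26 expected counts over the 8 libraries. Its values in NT cells were 0.45 and 0.57 FPKM without and 0.85 and 0.50 with TPL, and in TAM cells 0.42 and 0.29 without and 0.99 and 1.06 with TPL. Both TAM + TPL libraries lay above all others, and the log2 value for TPL against DMSO was 1.495 (SE 0.53, adjusted p = 0.0679) in TAM and 0.39 (SE 0.52, adjusted p = 0.582) in NT cells. EGR4, known from the nervous system, was at 1.45 and 1.96 FPKM in NT cells, or 3.22 and 2.54 with TPL, and at 1.35 and 0.70 in TAM cells, or 1.45 and 2.15 with TPL. Its log2 fold change with TPL was 0.74 (SE 0.44, adjusted p = 0.217) in NT and 0.76 (SE 0.45, adjusted p = 0.226) in TAM cells, so neither gene passed a threshold in the edgeR fit described above. The value of EGR2 in TAM cells did pass the looser threshold in 3 of 18 alternative fits, with adjusted p between 0.0337 and 0.0447. These were upper quartile scaling at 1.73, limma on log2(FPKM + 0.1) at 1.32 and limma on log2(FPKM + 1) at 0.58.

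The make-up of the EGR family therefore shifted with TPL. EGR1 made up 99.346 and 99.384% of the summed EGR FPKM in NT and 99.102 and 99.376% in TAM libraries. In NT + TPL it made up 92.287 and 90.408%, and in TAM + TPL 94.955 and 94.775%. The share of EGR3 was 0.195% or less in the DMSO libraries and between 2.656 and 6.319% in the TPL libraries. EGR1 stood 508.5 and 609.9 times above EGR3 in NT libraries and 15.78 and 14.31 times in NT + TPL. For TAM cells the ratio was 1413 and 1912 without and 30.54 and 35.68 with TPL, so in both kinds of cell it was lower with TPL while EGR1 remained the main transcript.

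**Figure D1:**
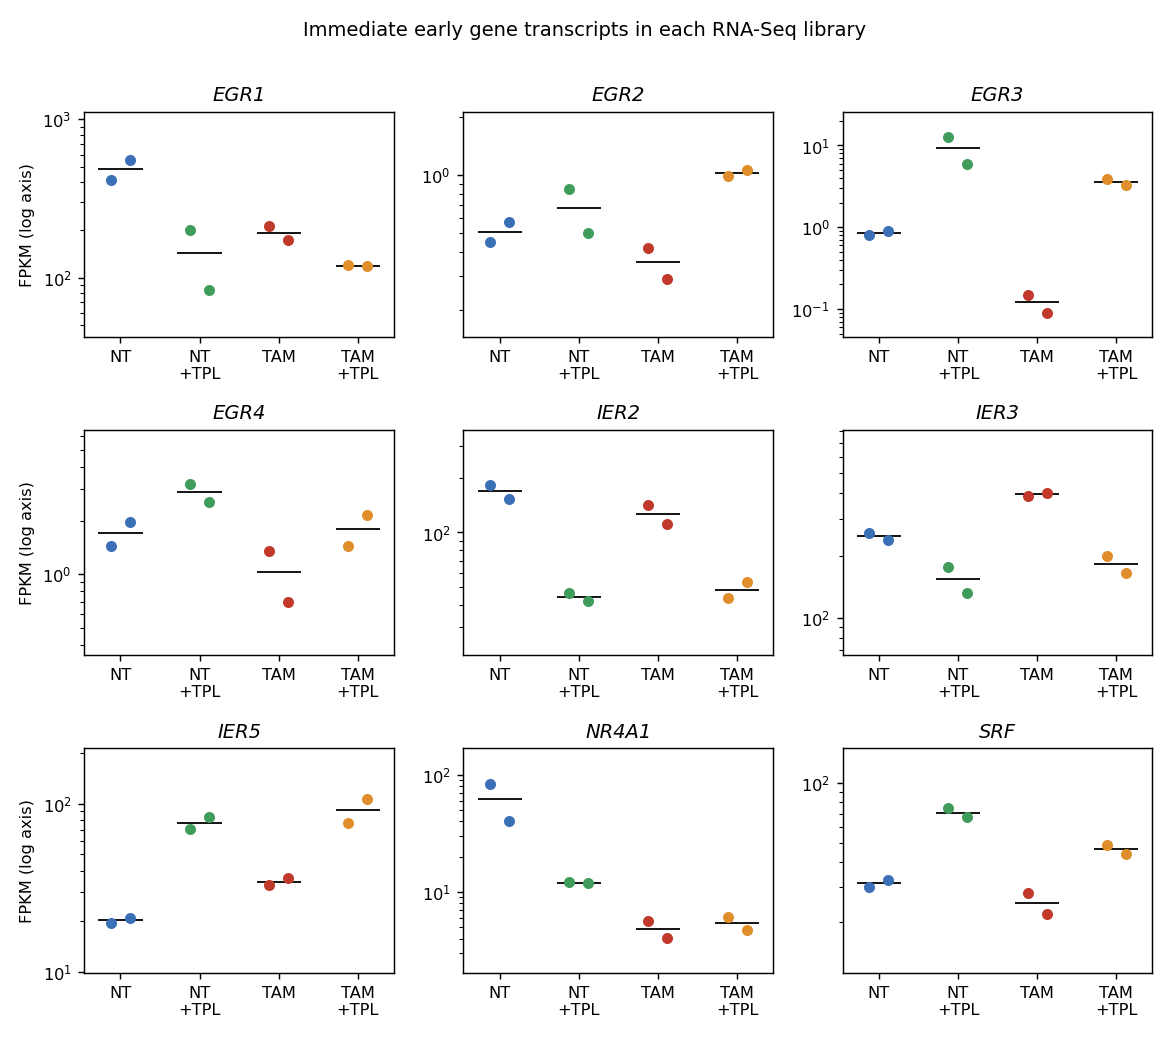
FPKM of the 9 genes on a log axis, with 1 panel per gene, 1 point per RNA-Seq library and a line at the mean of the 2 libraries of each group. EGR3, EGR4, IER5 and SRF sit higher in both TPL groups than in the matching DMSO groups, and EGR1, IER2 and IER3 sit lower. In the edgeR fit EGR4 did not pass the looser threshold in either kind of cell, nor did EGR1 in TAM cells. NR4A1 stands high in NT, at 83.58 and 40.26 FPKM, and low in TAM with and without TPL.

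IER2 and IER5 were changed in opposite directions by TPL. IER2, a nuclear protein gene induced by growth factors, went from 183.35 and 153.43 FPKM to 46.51 and 41.91 with TPL in NT cells. In TAM cells it went from 141.34 and 111.52 FPKM to 43.72 and 53.05. All 4 TPL libraries lay below all 4 DMSO libraries. IER2 changed by −1.94 on the log2 scale (SE 0.18, adjusted p = 0.000602) in NT cells and by −1.43 (SE 0.18, adjusted p = 0.00178) in TAM cells. IER5 went from 19.55 and 20.94 FPKM to 70.28 and 83.51 with TPL in NT cells, and from 32.80 and 36.08 FPKM to 76.76 and 106.81 in TAM cells. Here all 4 TPL libraries lay above all 4 DMSO libraries. IER5 rose by 1.92 (SE 0.20, adjusted p = 0.000922) in NT and by 1.36 (SE 0.20, adjusted p = 0.00315) in TAM cells. With DMSO the TAM libraries lay above the NT libraries for IER5, with a log2 difference of 0.78 (SE 0.20, adjusted p = 0.0705). It passed the looser threshold in 6 of 19 alternative fits, with adjusted p for IER5 between 0.000662 and 0.0472.

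IER3 was the most abundant of the IER genes and fell with TPL in both kinds of cell. Its values in NT cells were 256.08 and 238.90 FPKM without and 176.74 and 131.75 with TPL. In TAM cells they were 388.86 and 402.71 without and 197.87 and 164.25 with TPL. Both TAM libraries lay above all others, and the TPL groups lay below both DMSO groups and overlapped each other. IER3 changed by −0.69 on the log2 scale (SE 0.17, adjusted p = 0.0174) in NT and by −1.18 (SE 0.17, adjusted p = 0.00279) in TAM cells. The fall in NT cells no longer passed the looser threshold without NT replicate 1, without NT replicate 2, without NT + TPL replicate 2 or under upper quartile scaling. Between TAM and NT cells with DMSO, IER3 differed by 0.69 (SE 0.16, adjusted p = 0.0545), and the adjusted p was between 0.000433 and 0.0305 in the 5 of 19 alternative fits that passed the looser threshold.

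NR4A1 had the largest difference of the 9 genes between TAM and NT cells with DMSO. In NT cells it stood at 83.58 and 40.26 FPKM, and at 12.10 and 11.91 when TPL was present. In TAM cells it stood at 5.67 and 4.04 FPKM without and 6.17 and 4.73 with TPL. NT lay above NT + TPL, which lay above both TAM groups, and the TAM groups overlapped. NR4A1 was lower in TAM than in NT cells by a log2 difference of −3.37 (SE 0.37, adjusted p = 0.00301) with DMSO, and by −1.13 (SE 0.36, adjusted p = 0.121) with TPL. TPL lowered NR4A1 in NT cells, by a log2 change of −2.08 (SE 0.35, adjusted p = 0.00487), and gave 0.16 (SE 0.36, adjusted p = 0.758) in TAM cells. The difference between these TPL effects was 2.24 on the log2 scale (SE 0.50, edgeR adjusted p = 0.203), which did not pass. The mean length of the NR4A1 transcripts that RSEM assigned reads to was 2744.96 and 2807.99 bases in NT. It was between 3281.64 and 3482.5 bases in the other 6 libraries, which held between 114.88 and 316.87 expected counts of NR4A1. The mix of annotated transcripts that RSEM estimated thus differed, and this difference was not tested.

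The mRNA of SRF, a factor that binds CArG boxes, rose with TPL. Binding of SRF to the boxes shown above was not measured. SRF went from 29.94 and 32.50 FPKM to 74.51 and 66.88 with TPL in NT cells. In TAM cells it went from 27.80 and 21.91 FPKM to 48.77 and 43.68. The groups did not overlap, in the order NT + TPL, TAM + TPL, NT and TAM, which is the order of EGR3. SRF rose by 1.18 on the log2 scale (SE 0.16, adjusted p = 0.00243) in NT and by 0.88 (SE 0.16, adjusted p = 0.00798) in TAM cells. The rise in TAM cells no longer passed the looser threshold without TAM replicate 2 or without TAM + TPL replicate 1. With TPL, SRF differed between TAM and NT cells by −0.63 (SE 0.16, adjusted p = 0.0679).

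**Figure D2:**
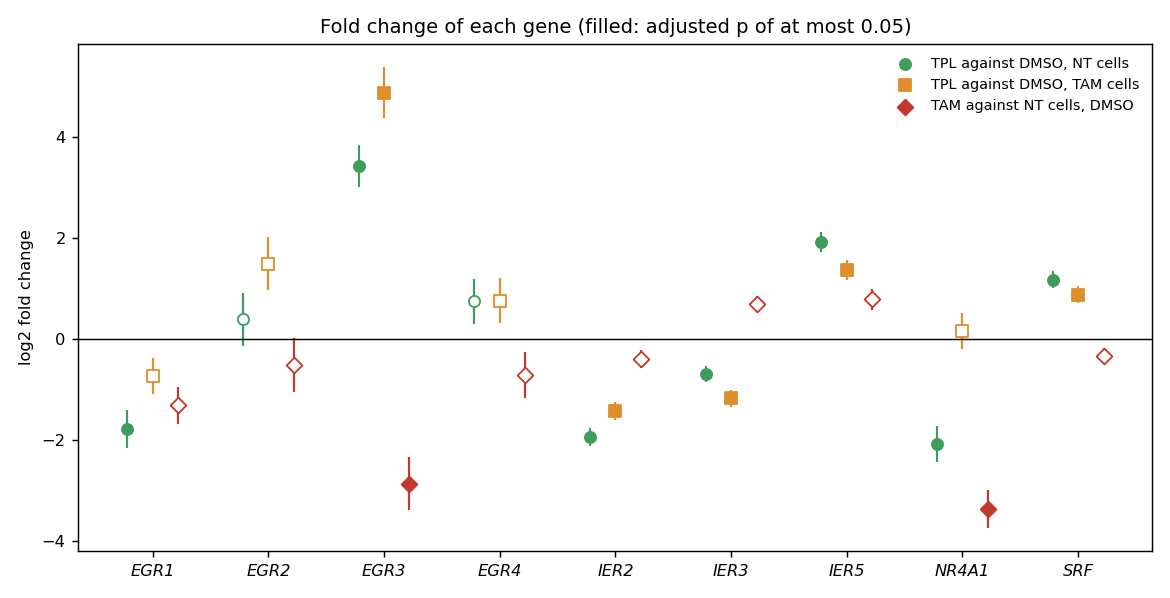
Log2 fold change of each gene with its standard error, for TPL against DMSO in NT cells (circles) and in TAM cells (squares) and for TAM against NT cells with DMSO (diamonds). Filled symbols have an adjusted p of at most 0.05: 7 of 9 for TPL in NT cells, 5 of 9 for TPL in TAM cells and 2 of 9, EGR3 and NR4A1, for TAM against NT cells.

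Counted together, 1 of the 9 genes was called higher (IER5) and 1 lower (IER2) with TPL in NT cells, where 1.22% of all tested genes were called higher and 2.71% lower. In TAM cells 1 was called higher (EGR3) and 0 lower, where 0.844 and 2.04% of all genes were. At the looser threshold 3 rose (EGR3, IER5 and SRF) and 4 fell (EGR1, IER2, IER3 and NR4A1) in NT cells, beside 17.2 and 19.8% of all genes. In TAM cells 3 rose (EGR3, IER5 and SRF) and 2 fell (IER2 and IER3), beside 14.3 and 18.6% of all genes. With any 1 of the 8 libraries left out, 0 of the 9 genes were called in NT cells. In TAM cells EGR3 was still called without either NT + TPL library and was lost without any of the other 6. The 6 libraries of NT, TAM and TAM + TPL had the same effect on all genes, of which 0 were called in either comparison once 1 of these was left out.

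By the values alone, 4 genes had TPL libraries above the DMSO libraries and 4 below in NT cells, where this was so for 36.4 and 32.7% of all genes. In TAM cells 5 lay above and 3 below, against 40.0 and 34.7% of all genes. The 9 genes had a median log2 fold change of 0.39 with TPL in NT and of 0.76 in TAM cells. These medians are the edgeR values of EGR2 in NT cells (adjusted p = 0.582) and of EGR4 in TAM cells (adjusted p = 0.226). Neither passed a threshold, so the medians are not read as a rise of the 9 genes as a set.

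Between TAM and NT cells with DMSO, 0 of the 9 genes were called, where 0.378% of all genes were called higher and 0.277% lower. At the looser threshold 0 were higher and 2 lower (EGR3 and NR4A1), beside 3.46 and 3.39% of all genes, and 5 of the 9 had an unadjusted p under 0.05, as did 19.9% of all genes. The TAM libraries of IER3 and IER5 lay above the NT libraries and those of the other 7 genes lay below, so that none of the 9 overlapped, where 24.0% of all genes lay above and 28.7% below. With DESeq2, 2 of the 9 were called, where it called 4.4% of all genes. With limma 0 were, beside 1.0% of all genes on log2(FPKM + 1) and 0.814% on log2(FPKM + 0.1). At the looser threshold EGR1, IER2, IER3, IER5 and SRF passed in at least 1 alternative fit, IER2 and SRF only with GAPDH as the reference, which moved the median of all genes to −0.50. Between TAM + TPL and NT + TPL, 0 of the 9 passed either threshold in the edgeR fit, beside 2.83% of all genes higher and 4.21% lower at an adjusted p of 0.05, and 3 had an unadjusted p under 0.05, as did 21.3% of all genes. DESeq2 called 0 of the 9 and 3.97% of all genes. SRF, EGR3 and NR4A1 were lower in TAM + TPL at the looser threshold in 3, 3 and 4 alternative fits, with a lowest adjusted p of 0.00362, 0.00682 and 0.00808. For the difference between the TPL effects in TAM and NT cells 0 of the 9 passed, beside 0.0885 and 0.0767% of all genes. Only NR4A1 had an unadjusted p under 0.05, as did 10.6% of all genes, and DESeq2 called it together with 0.856% of all genes.

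The partners of the EGR and SRF proteins gave values as follows. NAB2, the corepressor that binds EGR proteins and is itself an EGR target, went from 14.30 and 11.98 FPKM to 2.99 and 2.31 with TPL in NT cells, and from 11.95 and 10.80 FPKM to 2.34 and 2.19 in TAM cells. NAB2 changed by −2.32 on the log2 scale (SE 0.20, adjusted p = 0.000468) in NT and by −2.38 (SE 0.20, adjusted p = 0.000508) in TAM cells, and was called in both. NAB1, its paralogue, stood at 9.61 ± 2.31 FPKM (SD, n = 2) in NT and 5.12 ± 1.91 in NT + TPL, and at 7.74 ± 1.36 in TAM and 4.03 ± 0.63 in TAM + TPL. Its log2 fold change was −0.92 (SE 0.29, adjusted p = 0.0451) in NT and −0.99 (SE 0.29, adjusted p = 0.0405) in TAM cells. NAB1 missed the looser threshold in 13 of 19 alternative fits in NT cells and in 9 of 19 in TAM cells, and the value in NT cells lay between −1.32 and −0.60 as each library was left out, at −0.60 without NT + TPL replicate 2.

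Among the ternary complex factors, which bind beside SRF, ELK3 went from 19.99 ± 6.77 FPKM (SD, n = 2) in NT to 6.88 ± 4.21 in NT + TPL and from 29.6 ± 2.86 in TAM to 12.8 ± 0.29 in TAM + TPL. ELK3 changed by −1.56 (SE 0.40, adjusted p = 0.0231) and −1.26 (SE 0.39, adjusted p = 0.0467), and missed the looser threshold in 2 of 19 alternative fits in NT cells, without NT replicate 2 among them, and in 11 of 19 in TAM cells. ELK1 gave −0.54 (SE 0.26, adjusted p = 0.143) and −0.48 (SE 0.26, adjusted p = 0.195), and ELK4 −0.58 (SE 0.23, adjusted p = 0.0877) and −0.41 (SE 0.23, adjusted p = 0.205), so neither passed in that fit. In NT cells ELK1 passed in 2 and ELK4 in 3 of 19 alternative fits, and in TAM cells ELK4 passed in 1. MRTFA, the actin-regulated coactivator of SRF, was at 28.8 ± 0.219 FPKM without and 13.7 ± 3.99 with TPL in NT cells, and at 12.9 ± 3.87 without and 11.4 ± 2.07 with TPL in TAM cells (SD, n = 2). It changed by −1.07 (SE 0.26, adjusted p = 0.0196) with TPL in NT cells and was lower in TAM than in NT cells by a log2 difference of −1.16 (SE 0.26, adjusted p = 0.0485) with DMSO. The change of MRTFA with TPL missed the looser threshold without NT replicate 1, NT replicate 2 or NT + TPL replicate 2, and the difference between the cells missed it in 9 of 19 alternative fits. MRTFB was listed at 0 in 1 library of each group and at between 0.48 and 1.01 FPKM in the others, so no fold is given. Of the 7 partners 0 rose and 4 fell at the looser threshold in NT cells, and 0 rose and 3 fell in TAM cells. Over all genes 17.2% rose and 19.8% fell in NT cells, and 14.3 and 18.6% did in TAM cells. With each library left out, between 1 and 6 fell in NT cells, where 1 was left without NT replicate 2 and 6 without NT + TPL replicate 1. Between 1 and 3 fell in TAM cells, where 1 was left without any library of TAM or TAM + TPL. The number of all genes that passed also changed with the library left out. NAB2 kept the looser threshold in all alternative fits in both kinds of cell. Over the 6 partners other than MRTFB the log2 fold changes had a median of −0.998 for NT and −0.73 for TAM cells.

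The relatives of NR4A1 and IER5 are given beside them. NR4A2, an orphan receptor of dopamine neurons, went from 25.08 and 21.05 FPKM to 5.06 and 4.94 with TPL in NT cells, and from 13.60 and 10.25 FPKM to 2.54 and 3.25 in TAM cells. It changed by −2.21 (SE 0.21, adjusted p = 0.0006) in NT and by −2.09 (SE 0.21, adjusted p = 0.000886) in TAM cells, so NR4A2 was called in both, while NR4A1 passed the looser threshold in NT cells alone. NR4A3 moved with TPL from 0.04 and 0.14 to 5.14 and 3.08 FPKM in NT cells, and TAM cells held 0.14 and 0.23 without and 2.67 and 2.01 with TPL. NR4A3 rose by 5.68 (SE 0.68, adjusted p = 0.00137) in NT and by 4.28 (SE 0.64, adjusted p = 0.00355) in TAM cells, on between 0.83 and 7 expected counts in the DMSO libraries. The size of the NR4A3 rise varied with the fit. In NT cells it lay between 4.92 and 7.36 as each library was left out, and in limma on log2(FPKM + 1) it was smaller, at 2.20 for NT and 1.49 for TAM cells. The NR4A family thus held 1 gene that rose and 1 that fell in both kinds of cell.

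IER5L, the IER5-like gene, stood in NT cells at 10.17 and 10.14 FPKM without and 8.51 and 7.32 with TPL, and in TAM cells at 31.34 and 23.97 without and 6.82 and 7.69 with TPL. It gave −0.37 (SE 0.17, adjusted p = 0.138) with TPL in NT cells and changed by −1.98 (SE 0.18, adjusted p = 0.000593) in TAM cells. The difference between these TPL effects was −1.61 (SE 0.245, edgeR adjusted p = 0.0856), which did not pass. It passed the looser threshold in 2 of 18 alternative fits, DESeq2 and the filter of at least 10 counts in every library. With DMSO, IER5L was higher in TAM than in NT cells by a log2 difference of 1.46 (SE 0.17, adjusted p = 0.00396). IER5 itself rose with TPL in both kinds of cell.

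Of 25 other immediate early genes listed, 1 was called higher and 7 lower with TPL in NT cells. In TAM cells 1 was called higher and 8 lower. Over all genes 1.22% were called higher and 2.71% lower in NT cells, and 0.844 and 2.04% in TAM cells. At the looser threshold 1 rose, 13 fell and 11 did not pass in NT cells, and 6 rose, 15 fell and 4 did not pass in TAM cells. Without 1 of the TAM or TAM + TPL libraries, 1 or 2 of them rose and 12 or 13 fell in TAM cells. Fewer of all genes passed there as well. The list had a median log2 fold change of −1.40 with TPL in NT and −1.59 in TAM cells, beside 0.09 and 0.05 over all genes. The largest falls among the calls in NT cells were MYC, a growth regulator, at −4.80 (SE 0.27, adjusted p = 0.000195), KLF6 at −4.20 (SE 0.17, adjusted p = 0.000178) and FOS at −4.17 (SE 0.20, adjusted p = 0.000178). In TAM cells they were KLF6 at −4.61 (SE 0.17, adjusted p = 0.000167), DUSP1, a phosphatase of MAP kinases, at −4.49 (SE 0.25, adjusted p = 0.000252), and FOS at −4.42 (SE 0.20, adjusted p = 0.000234). FOS stood at 539.3 ± 51.4 FPKM (SD, n = 2) in NT and 30.2 ± 4.85 in NT + TPL, and at 504.5 ± 71.5 in TAM and 24.3 ± 3.57 in TAM + TPL. The single call in the other direction was GADD45B, a stress response gene, which rose by 3.17 (SE 0.21, adjusted p = 0.000246) in NT and by 2.77 (SE 0.20, adjusted p = 0.000385) in TAM cells. GADD45B went from 21.4 ± 5.89 to 192.4 ± 10.9 FPKM in NT cells, while TAM cells moved from 21.8 ± 0.403 to 154.4 ± 5.67 (SD, n = 2).

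Of the actin cytoskeleton genes known as SRF targets, those that passed the looser threshold in the edgeR fit described above moved against the direction of SRF itself. Of 14 listed, 13 were tested, and CNN1 was left out by the filter at 0.24 FPKM or less in mean. With TPL 0 rose, 8 fell and 5 did not pass the looser threshold in NT cells, beside 17.2% of all genes higher and 19.8% lower. In TAM cells 0 rose, 7 fell and 6 did not pass, beside 14.3 and 18.6% of all genes. FLNA, which crosslinks actin filaments, gave 0.42 (SE 0.20, adjusted p = 0.132) in NT and 0.41 (SE 0.20, adjusted p = 0.15) in TAM cells. Under upper quartile scaling, which raised the median of all genes, FLNA passed as a rise in both, at 0.64 (adjusted p = 0.0342) and 0.65 (adjusted p = 0.037). TAGLN2, a relative of TAGLN, gave 0.37 (SE 0.14, adjusted p = 0.0868) in NT cells and passed as a rise under upper quartile scaling, with DESeq2 and without NT + TPL replicate 1, with adjusted p between 0.0225 and 0.0325. FLNA and TAGLN2 were picked here after their values were seen. TAGLN, an actin-binding protein of contractile cells, was the single call in NT cells, at −2.40 (SE 0.20, adjusted p = 0.000467). The calls in TAM cells were ZYX, a focal adhesion protein, at −1.25 (SE 0.13, adjusted p = 0.000893) and the calponin CNN2 at −1.24 (SE 0.12, adjusted p = 0.000886). On the log2 scale the list had a median of −0.996 in NT cells and −0.97 in TAM cells. Over all 48 tested genes that are not among the 9, 1 was called higher and 10 lower in NT cells. Of all genes 1.22 and 2.71% were. In TAM cells 1 of the 48 was called higher and 13 lower, beside 0.844 and 2.04% of all genes.

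**Figure D3:**
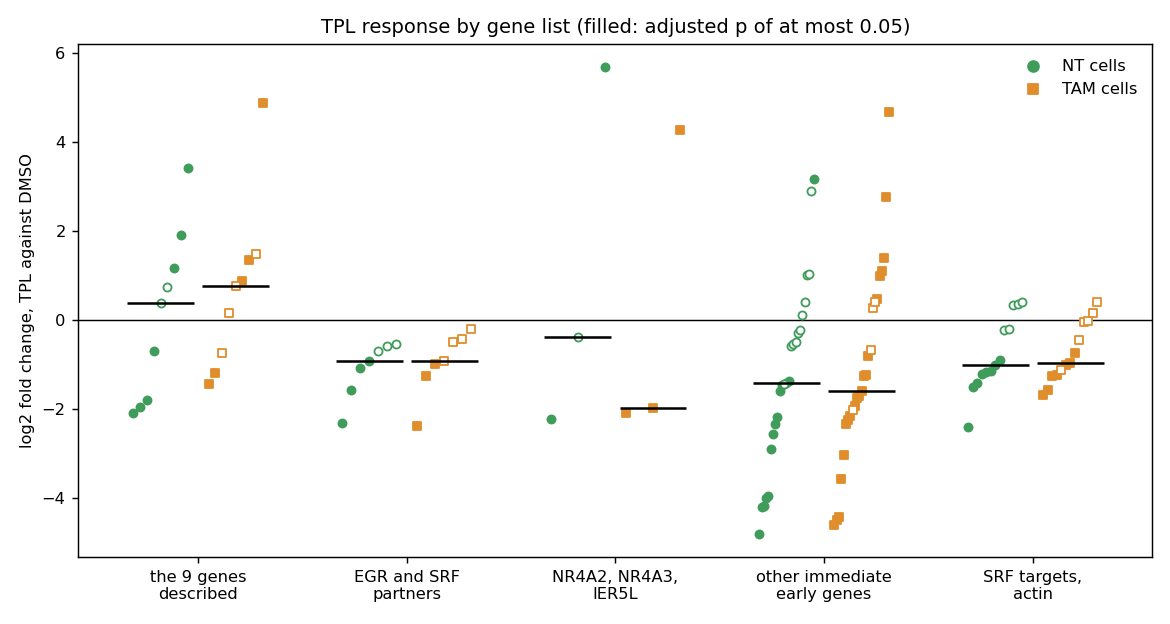
Log2 fold change with TPL of the 9 genes and of 4 lists of related genes, in NT cells (circles) and TAM cells (squares), with 1 point per gene, a line at the median of each list, and filled symbols for an adjusted p of at most 0.05. The medians are 0.39 and 0.76 for the 9 genes and −1.40 and −1.59 for the other immediate early genes. Those of the 9 genes are the values of EGR2 in NT and EGR4 in TAM cells, which have open symbols.

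RNAPII on these genes could be read from the deposited peak lists, which give positions with no height or score. Each list comes with no second list to compare, so there is no test. The peak names in all 4 lists carry a sample tag that ends in 1, so a list may describe 1 replicate alone. The names of the TAM list carry another cutoff tag than those of the other 3 lists. Of its 11056 names 4584 also end in a letter, against 0 in each of the others. Its median peak measured 406 bases, against 632 in NT, 553 in NT + TPL and 455 in TAM + TPL. The main start lay in a listed peak for 5 of the 9 genes in NT (EGR1, IER2, IER5, NR4A1 and SRF), against 67.6% of 13312 genes. In NT + TPL it did for 4 (EGR1, IER5, NR4A1 and SRF), against 54.2%. In TAM it did for 3 (EGR1, IER5 and SRF), against 59.7%, and in TAM + TPL for 6 (EGR1, EGR3, EGR4, IER5, NR4A1 and SRF), against 53.1%.

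IER5, the IER gene that rose, lay under some of the widest peaks. Its peak measured 5387 bases in NT and 10670 in NT + TPL, against 7783 in TAM and 9370 in TAM + TPL, and covered the whole gene in each. Only 0.092% of the listed peaks in NT + TPL and 0.071% in TAM + TPL were at least as wide, while the median peak measured 553 and 455 bases. In NT 1.488% were at least as wide and in TAM 0.335%. The IER2 peak in NT was wider than that of IER5 there, with 1.167% at least as wide. The peak on IER5 reached 4810 bases after the start in NT and 10173 in NT + TPL, against 7408 in TAM and 8981 in TAM + TPL, and the gene spans 4201 bases.

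EGR1, whose mRNA was lower with TPL, also kept a peak over its start in every list. The EGR1 peak measured 5285 bases in NT and 6581 in NT + TPL, and covered the whole gene in both. It measured 657 bases in TAM, covering 14.1% of the gene, and 6522 in TAM + TPL, covering all of it. Only 0.289% of the listed peaks in NT + TPL and 0.213% in TAM + TPL were at least as wide as that of EGR1. The narrow peak was thus in the list with the other cutoff tag, and its share in that difference was not tested.

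IER2 differed from both. In NT its peak measured 6439 bases and ran from 649 bases before the start to 5789 bases after it. In NT + TPL the listed peak measured 419 bases and ran from 1036 to 1454 bases after the start, so it held 0 of the 3 annotated starts of the gene. In TAM it measured 1636 bases, from 464 to 2099, and in TAM + TPL 1409 bases, from 434 to 1842. The main start of IER2 was therefore outside the listed peaks in all groups other than NT. In TAM and in TAM + TPL the peak did hold 1 of the 3 annotated starts.

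SRF and NR4A1 had narrower peaks at the start. The SRF peak measured 1047 bases in NT and 638 in NT + TPL, against 683 in TAM and 927 in TAM + TPL, between 3.5 and 7.4% of the gene. SRF had a second listed peak beyond its only start, of 263 bases in NT, from 849 to 1111 bases after it, and of 266 bases in NT + TPL, from 471 to 736. The NR4A1 peak measured 178 bases in NT, 288 in NT + TPL and 204 in TAM + TPL, and the TAM list held none on the gene. EGR3 and EGR4 had a peak in TAM + TPL alone, of 215 and 216 bases, and 89.875 and 89.733% of the peaks in that list were at least as wide. EGR3 had no listed peak in NT + TPL, where its mRNA was highest.

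**Figure D4:**
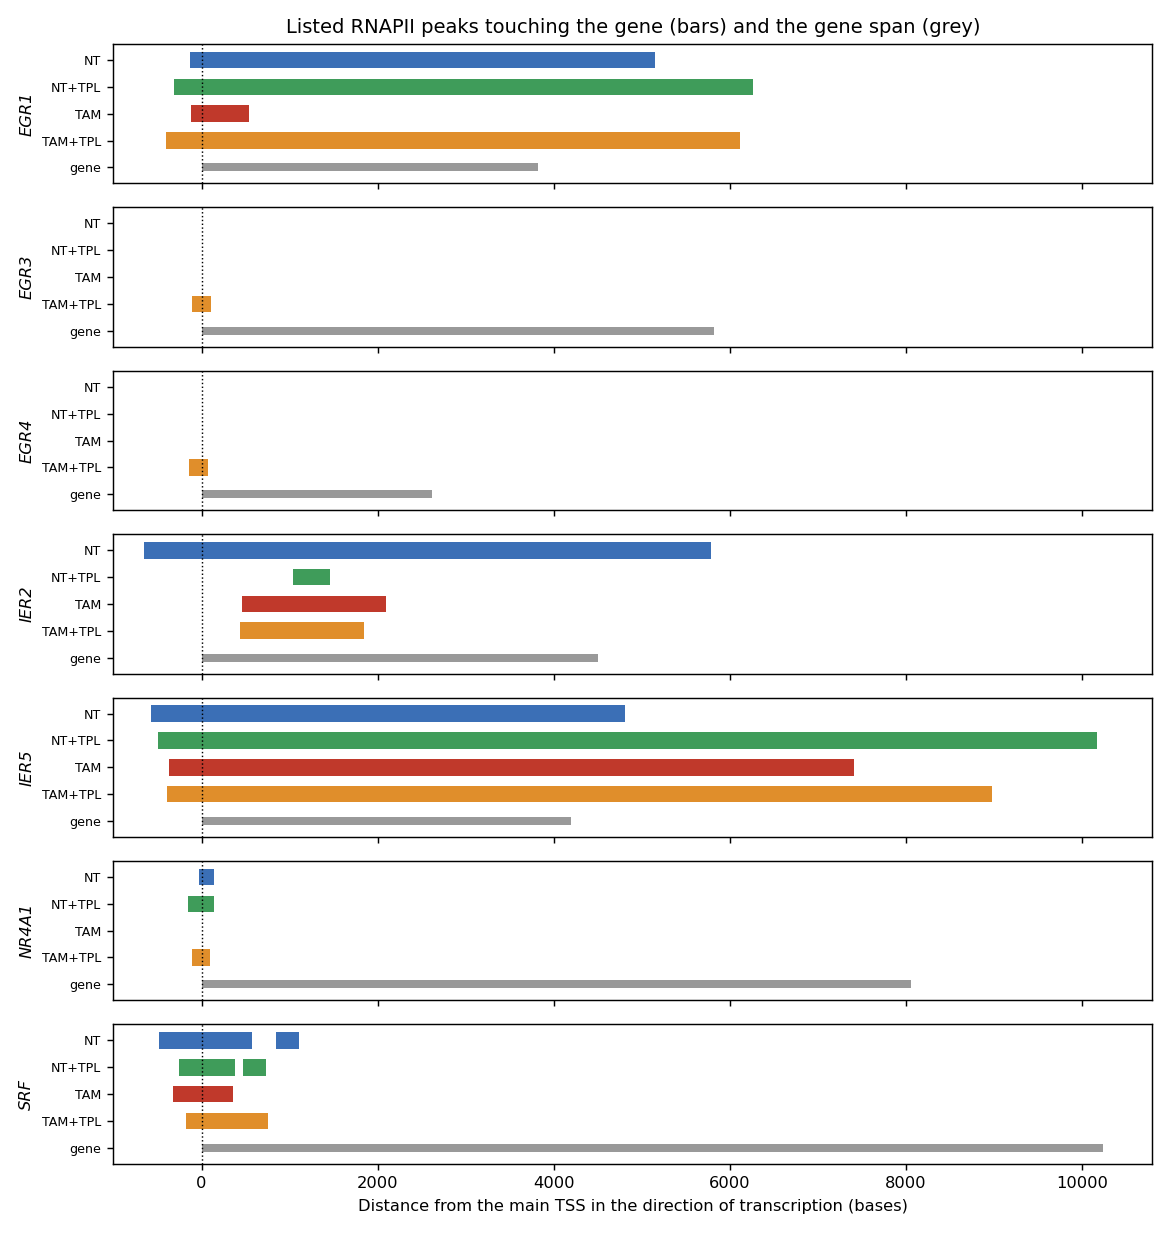
Listed RNAPII peaks that touch each gene, drawn as bars against the distance in bases from the main start in the direction of transcription, with 1 row per group and the gene span in grey. IER5 is covered end to end in all 4 groups, EGR1 in 3 of them, and the IER2 peak begins before the start in NT alone. EGR2 and IER3 had no listed peak and are not drawn.

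EGR2 and IER3 had no listed peak in any group, although IER3 was among the most abundant mRNAs, with 1.55% of tested genes at or above its mean of 244.64 FPKM. The listed peak nearest to the IER3 start was 23927 bases away in NT and 126632 in NT + TPL, and the distances were 23004 in TAM and 127219 in TAM + TPL. The neighbourhood of IER3 on chromosome 6 was sparse in peaks as a whole. Of 56 tested starts within 1000000 bases of it, 6 lay in a peak in NT (10.7%), 2 in NT + TPL (3.57%) and 3 each in TAM and TAM + TPL (5.36%). Of the 629 other starts on chromosome 6, 65.0, 51.4, 59.1 and 51.4% did. The absence of a listed peak on IER3 is thus shared with most of its neighbours, and its cause was not tested. The lists give positions alone, so it is not read here as a lack of RNAPII on the gene.

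The genes most like each of the 9 were found by the smallest root mean square difference between log2(FPKM + 1) profiles over the 8 libraries, each centred on its own mean, among 14489 genes with a mean of at least 1 FPKM. EGR2 was below that minimum. The nearest to EGR1 were FAT2 and MICALL1, at 0.17 and 0.19, where the EGR1 profile itself had a root mean square of 0.86. The nearest to EGR3 were PEG10 and CLDN6, at 0.12 and 0.22, against 1.23 for EGR3 itself. NR4A1 had the most distant nearest gene, OVOL1, at 0.35 against 1.37. The nearest to IER2 were MTA2 and GTF2H4, at 0.13 and 0.14, and to IER3 DBNL and ZNF239, at 0.10 and 0.11. The nearest to IER5 were WSB1 and GCH1, at 0.13 and 0.17, to EGR4 AGRN and ABCA3, at 0.10 and 0.10, and to SRF LOH12CR2 and LOC100652768, at 0.09 and 0.09. None of the 9 genes was among the nearest of another.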

How the data were processed

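The authors aligned poly-A RNA-Seq reads to reference genes and estimated expression with RSEM. The deposited expected counts are RSEM's unnormalized read estimates, and the deposited FPKM are the same estimates per kilobase of transcript and scaled to the mapped reads. For ChIP-Seq the authors aligned reads to hg19, called RNAPII peaks over input with MACS (version 1.4.2 in the submitters' processing notes) and deposited 1 list per group, of which the position columns were used. Whether the replicates were pooled is not given in the sources used here, and the peak names carry a tag ending in 1.

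Genes missing from a library were taken as 0. Symbols came from gene IDs for 21077 of 23604 genes and from RefSeq accessions for 2384, and 143 had none. Differences were tested by the quasi-likelihood method of edgeR 4.0.16 (R 4.3.3) on rounded expected counts, with TMM scaling, filterByExpr and 4 groups in 1 fit, at thresholds taken from the study's methods. On simulated data 18 of 200 genes changed by 2 on the log2 scale were called for TPL against DMSO in NT cells and 44 for TAM cells, and 138 and 144 passed an adjusted p of 0.05. Replicates differed by more than counting noise, with at least 35.7% of genes apart beyond 2 counting SDs, among genes with 50 counts or more over both replicates (a minimum set after the values were seen). Main starts are those of the Ensembl canonical transcripts in GENCODE release 44 on GRCh37, which is the build of the files.

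The 9 genes, lists and thresholds were chosen with earlier results of these data known. Named are all 9, the partners, NR4A2, NR4A3 and IER5L, up to 3 of the largest calls per direction of the other lists, and the 2 most similar genes. The alternatives were DESeq2 1.42.0, other scalings, other filters and thresholds, a replicate block, fits on 2 groups, limma 3.58.1 on log2(FPKM + 1) and log2(FPKM + 0.1), and each library left out. The ChIP signal was not used here. A gene that the naming rule selected is not reported here.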

Additional observations from a re-analysis of the deposited data

How the results depend on the processing

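All 14 changes of the 9 genes with an adjusted p of at most 0.05 kept their direction in all 19 alternative fits that tested them. They also kept that threshold in every fit with all libraries, other than IER3 in NT cells under upper quartile scaling and in the fit on 2 groups, and EGR3 between TAM and NT cells in limma on log2(FPKM + 1). Of the other differences of the 9 genes, 11 passed that threshold in at least 1 alternative, in 36 fits in all: 2 for TPL in TAM cells, 5 between TAM and NT cells with DMSO, 3 with TPL, and the interaction of NR4A1 in DESeq2. Calls at 0.001 did not hold as well. Of the 9 genes, the number called with TPL in NT cells was 2 and became 5 at an adjusted p of 0.05 with the log2 limit of 1.2 kept, 4 with at least 10 counts in every library, 5 with DESeq2, 1 with GAPDH as the reference and 0 in the fit on 2 groups. The share of all genes called was 3.93% and became 21.1, 11.5, 15.1, 3.94 and 0% under the same settings. In TAM cells the number of the 9 genes was 1 and became 3, 2 and 3 under the first 3 of these, and 0 with DESeq2's size factors, library size only, limma on log2(FPKM + 1) or 2 groups. Of all genes 2.88% were called there, and 19.2, 9.99 and 13.4% under the first 3. Under the settings that gave 0, in the order named, 2.79, 2.38, 3.99 and 1.74% of all genes were called. No filter on low counts gave 3 in NT and 1 in TAM cells, beside 3.88 and 3.05% of all genes. Between TAM and NT cells with DMSO it was 0 and became 2 at an adjusted p of 0.05, 1 with at least 10 counts, 2 with DESeq2 and 1 with GAPDH, beside 0.655% of all genes and 4.87, 2.58, 4.4 and 0.643%. For the difference of the TPL effects DESeq2 called 1, beside 0.856% of all genes.

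The related genes called in NT cells numbered 11 and became 22 at an adjusted p of 0.05 with the same log2 limit. They numbered 18 with at least 10 counts, 21 with DESeq2, 18 with GAPDH and 0 in the fit on 2 groups. The share of all genes called was 3.93% and became 21.1, 11.5, 15.1, 3.94 and 0% under these settings in turn. In TAM cells the related genes called numbered 14 and became 26 at an adjusted p of 0.05. They numbered 23 with DESeq2, 8 with GAPDH, 8 with 2 groups and 9 with upper quartile scaling. Here the share of all genes was 2.88% and became 19.2, 13.4, 1.68, 1.74 and 2.4% in turn. With each library left out, the 9 genes gave 0 calls throughout for NT and 0 to 1 for TAM cells, and the related genes gave 0 to 5 for NT and 0 to 14 for TAM cells. A replicate block gave 0 calls for the 9 genes and 0 for the related genes in both comparisons, and 0 over all genes, while all 14 changes kept an adjusted p of at most 0.05. The replicate numbers were not treated as paired, since the study states no pairing. The replicate differences of the groups correlated between −0.135 and 0.05.

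Directions that reversed all belonged to differences with an adjusted p above 0.05. EGR1 in TAM + TPL against NT + TPL turned to 0.477 without NT + TPL replicate 1, in a range from −0.729 to 0.477 with a library left out. IER2 there turned to −0.11 with GAPDH and −0.003 without TAM + TPL replicate 2 (−0.003 to 0.258 with a library left out), and IER3 to −0.019 with GAPDH. NR4A1 with TPL in TAM cells lay between −0.065 and 0.40 with a library left out, at −0.065 without TAM replicate 2 and −0.046 without TAM + TPL replicate 1. The interaction of EGR3 turned to −0.35 and that of EGR4 to −0.046 in limma on log2(FPKM + 1). That of EGR4 was −0.22, −0.12, −0.37 and −0.29 without replicate 2 of NT, NT + TPL, TAM and TAM + TPL, in a range from −0.372 to 0.56. The cause of these changes was not tested.

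Counting any annotated start, or a peak within 1000 bases, left the number of the 9 genes with a peak within 1.5 times of its value in every group. A peak of at least 250 bases on each side of the start was found for 3 in NT and 2 in TAM + TPL.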
